A study of Mus musculus with 8 samples.

Results

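Ly6Clo macrophages of the infarcted mouse heart were compared with Ly6Chi macrophages after culture without interleukin 21 (IL-21). The comparison rests on 4 of the 8 libraries in the series, 2 of each subset, chosen by the subset and stimulation in the sample titles. All came from wild-type C57BL/6 mice, 8 weeks of age and 3 days after myocardial infarction, whose heart macrophages were sorted by Ly6C, a surface antigen of monocytes and their recent progeny. Sorted cells were kept for 24 hours in RPMI medium with 10% fetal calf serum and no added cytokine. The other 4 libraries, with IL-21 at 100 ng/mL, entered the same model and are used only where stated. The levels are those of cultured cells, since no library was made from freshly sorted cells among the samples analysed here. The labels do not say whether libraries came from separate mice or from pooled hearts, so p-values measure only the spread between these libraries, which may be technical.

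Ly6Chi monocytes enter the injured heart from the blood early after infarction, carry the chemokine receptor Ccr2 and make inflammatory cytokines and proteases. Ly6Clo cells are known for wound healing, matrix remodelling and uptake of dead cells, and in the heart arise largely from Ly6Chi cells that have lost the antigen, beside resident macrophages. Ly6C itself is encoded by the near-identical neighbours Ly6c1 and Ly6c2.

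Libraries read the 3′ end of messenger RNA. Deposited totals were 261205 and 284174 counts in Ly6Chi and 257385 and 483593 in Ly6Clo, numbers 1 and 2 of each subset in that order, which is kept for every pair of values below. Levels are CPM, counts scaled by the normalised total of the genes tested, and a level is not adjusted for transcript length, so levels are compared between libraries and not between genes. Over all 8 libraries 3 counts correspond to 6.58 to 14.9 CPM. That level reflects the depth of counting only and not the spread between libraries. Of 16 pan-macrophage markers 15 were tested, and Itgam was listed at 0 in all 4 libraries, as were Cd8a of T cells and Ly6g of neutrophils. Cytosolic ribosomal protein genes held 1.58 to 2.21% of the counts, and the tables hold no mitochondrially encoded gene. In bulk RNA, fewer cells of a type and less RNA per cell cannot be told apart.

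The sorted antigen checked the labels. Ly6c2 (chr15:75108158-75111970, - strand, GRCm38) was at 545 and 412 CPM in Ly6Chi and 45.7 and 74.6 CPM in Ly6Clo, so both Ly6Chi libraries stood above both Ly6Clo libraries (log2 fold change -2.92, SE 0.41, edgeR adjusted p 0.0284). Ly6c1 (chr15:75044018-75048830, - strand) was at 107 and 80.1 CPM in Ly6Chi and 0 and 13.2 CPM in Ly6Clo, where the 0 stands for a deposited count of 0.5, in the same order (blocked log2 fold change -3.37, SE 0.59, edgeR adjusted p 0.00498). Without the block the call of Ly6c2 ended when any of the 4 compared libraries or either Ly6Chi library with IL-21 was left out (edgeR adjusted p 0.0653 to 0.176), and with the block it remained in all 8 such fits. The antigen was used to sort the cells, and these values are a check of the sort and not a finding. Among the 50-base words of the last 300 bases of their transcripts, 23.1% for Ly6c2 and 31.8% for Ly6c1 also occur in other Ly6 genes, so the division of reads between them is uncertain. Their windows before the RefSeq start (RefSeq, GRCm38.p6, 250 bases, written 5′ to 3′ on the strand of the gene) share 35 bases in runs of at least 15, which stand in capitals, and are shown to let the promoters of the 2 genes be told apart.
Ly6c2 (chr15:75111972-75112221, - strand): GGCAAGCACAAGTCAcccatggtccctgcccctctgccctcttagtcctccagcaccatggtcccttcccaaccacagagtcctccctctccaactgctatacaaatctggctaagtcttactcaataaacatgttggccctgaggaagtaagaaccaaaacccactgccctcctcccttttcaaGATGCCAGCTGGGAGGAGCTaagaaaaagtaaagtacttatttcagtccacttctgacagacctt
Ly6c1 (chr15:75048838-75049087, - strand): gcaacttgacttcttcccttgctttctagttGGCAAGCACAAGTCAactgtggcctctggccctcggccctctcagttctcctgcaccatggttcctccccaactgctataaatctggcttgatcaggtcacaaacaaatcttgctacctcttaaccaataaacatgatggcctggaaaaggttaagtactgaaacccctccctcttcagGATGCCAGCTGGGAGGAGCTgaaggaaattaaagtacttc

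Across the 5256 genes tested, edgeR's quasi-likelihood test called 2 genes between the subsets at an adjusted p under 0.05, which is 0.0381% of the genes tested. Both were lower in Ly6Clo: Ly6c2 and the chemokine gene Cxcl3. No gene was called higher in Ly6Clo, where 110 had an unadjusted p under 0.05 (2.09%), and in either direction 238 genes had one (4.53%). DESeq2 called 2 genes, with 69 at an unadjusted p under 0.05, and limma-voom 1, with 215. When the replicate number was a block in the model, which assumes pairs of libraries that the labels do not state, 31 genes were called (0.59% of the genes tested), 9 higher (0.171%) and 22 lower (0.419%) in Ly6Clo. At an unadjusted p under 0.05 these were 489 genes (9.3%). The 29 genes added by the block had edgeR adjusted p-values of 0.136 to 0.995 without it. Leaving out 1 library left 7 to 78 blocked calls, 9 without Ly6Chi number 1, 46 without Ly6Chi number 2, 7 without Ly6Clo number 1, 13 without Ly6Clo number 2, 78 and 72 without Ly6Chi number 1 or 2 with IL-21. Of the 31 genes 2 remained in all 8 of these fits, Cxcl3 and Ly6c2, and 10 in none of the 4 that left out a compared library. The 10 were Atp6v0d2, Mmp12, Ctsl, Timp2, Hilpda and Ccl5, higher in Ly6Clo, and Gm6545, Gm47242, Maf and Adgre1, lower. The filter on low counts was rerun in each leave-out fit and kept more genes than the 5256. The genes called with the block lie outside the rule for named genes except where they also met it, and their names were chosen once their values had been seen.

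The change from number 1 to number 2 was weakly shared by the 2 subsets over all genes (Pearson r 0.234). A subset difference was therefore also read within each number. All 31 genes had the same sign within number 1 and within number 2, against 54.5% of all genes tested, and the block itself favours such genes. In 26 of the 31 the Ly6Chi and Ly6Clo libraries did not overlap. Over all genes tested the same was true of 16.9% in the higher and 17% in the lower direction. The 31 were called from a difference in these same 4 libraries, which favours such separation. Over all genes the differences within number 1 and within number 2 correlated weakly (Pearson r 0.169, Spearman rho 0.149). These points are genes of the same 4 libraries, which are not independent replicates.

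**Figure D1:**
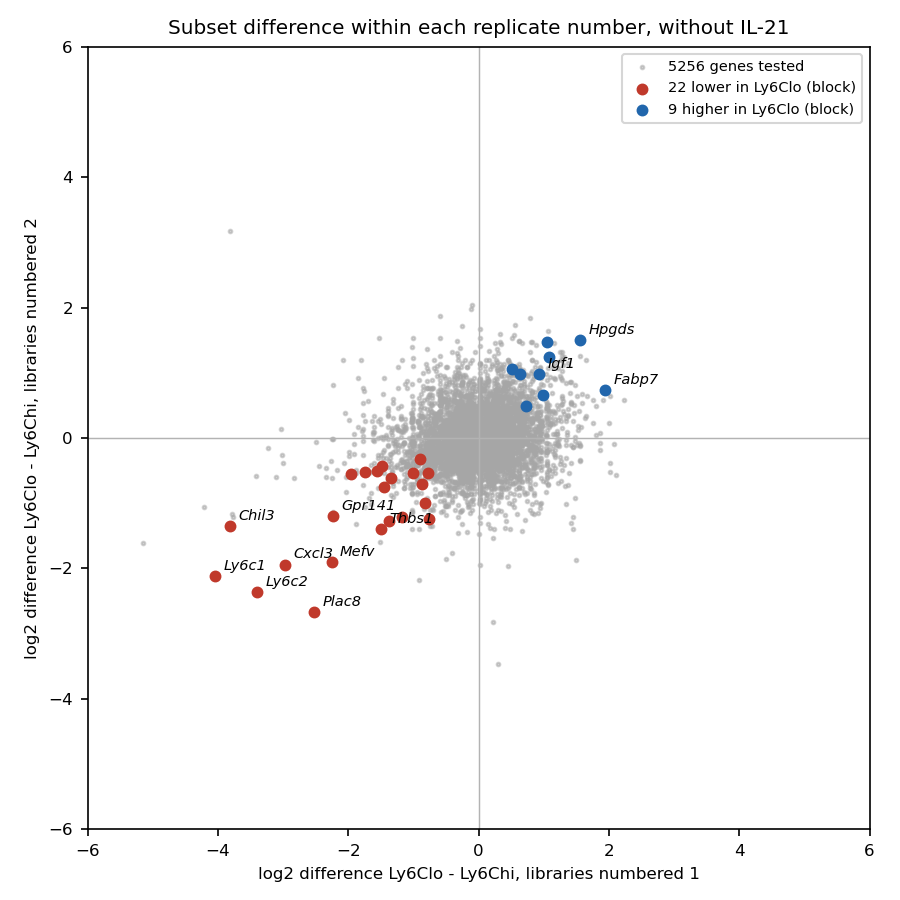
Log2 difference Ly6Clo minus Ly6Chi among libraries numbered 1 (x axis) and numbered 2 (y axis), without IL-21, for the 5256 genes tested (grey), the 22 genes called lower (red) and the 9 called higher (blue) with the replicate number as a block. Ly6c2, Ly6c1, Plac8, Chil3 and Cxcl3 lie far from 0 in both numbers, while the grey points centre near 0.

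**Figure D2:**
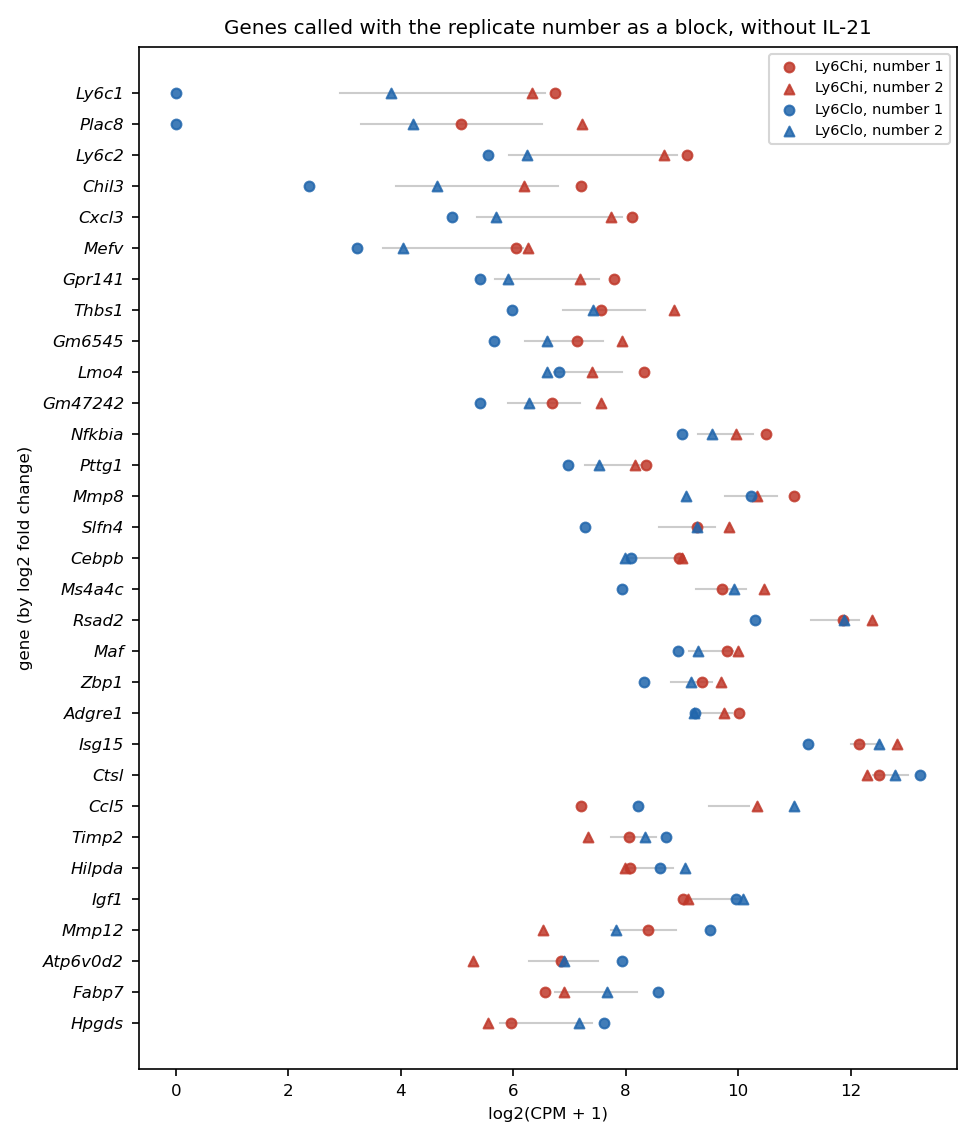
Level of each of the 31 genes called with the block, as log2(CPM + 1), in the 4 libraries without IL-21, with circles for number 1 and triangles for number 2, and a grey line joining the means of the subsets. Genes such as Cxcl3, Mefv and Igf1 separate the subsets, while for Ccl5, Rsad2 and Isg15 the libraries overlap and the subset order holds only within a number.

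Beside the antigen gene Ly6c2, Cxcl3 was the gene called without the block. The windows before the starts of Cxcl3, its neighbour Cxcl2 and Nfkbia are shown because each holds a match to an NF-kappaB-type motif, in capitals. The motif searched was GGNNTTNCC on both strands, and 13.5% of 32851 RefSeq windows of the same length hold it, as do 18% of the 4097 genes tested that have a window. Among the 31 genes called with the block, 23 have a window and 11 of these hold it (47.8%), while with 1 more G required before it the counts were 3 genes (13%) against 6% of the genes tested. The 3 genes are Cxcl3, Nfkbia and Hilpda. Of the 11, Ctsl, Hilpda, Igf1 and Timp2 were called higher in Ly6Clo and the rest lower. A match is a description of the letters and not a site of binding.
Cxcl3 (chr5:90785851-90786100, + strand): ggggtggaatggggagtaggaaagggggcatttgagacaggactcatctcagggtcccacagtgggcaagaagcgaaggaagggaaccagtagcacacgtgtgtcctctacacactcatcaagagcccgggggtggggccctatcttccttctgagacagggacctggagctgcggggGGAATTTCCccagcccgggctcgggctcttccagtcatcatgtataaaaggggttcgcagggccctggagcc
Cxcl2 (chr5:90903649-90903898, + strand): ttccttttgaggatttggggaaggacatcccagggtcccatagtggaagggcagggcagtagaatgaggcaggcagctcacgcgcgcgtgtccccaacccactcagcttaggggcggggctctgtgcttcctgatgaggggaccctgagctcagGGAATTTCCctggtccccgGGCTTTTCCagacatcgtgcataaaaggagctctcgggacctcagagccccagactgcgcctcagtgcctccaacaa
Nfkbia (chr12:55492648-55492897, - strand): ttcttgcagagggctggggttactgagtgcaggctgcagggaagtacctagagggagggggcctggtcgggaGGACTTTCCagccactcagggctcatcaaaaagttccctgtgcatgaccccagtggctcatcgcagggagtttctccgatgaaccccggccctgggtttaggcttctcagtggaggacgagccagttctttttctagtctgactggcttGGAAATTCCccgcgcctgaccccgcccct

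Cxcl3, a chemokine that draws neutrophils through the receptor Cxcr2, was at 275 and 214 CPM in Ly6Chi and 29.1 and 50.5 CPM in Ly6Clo (chr5:90786103-90789600, + strand). The Ly6Chi mean was 5.75 times the Ly6Clo mean by the fit, with no overlap (log2 fold change -2.52, SE 0.35, edgeR adjusted p 0.0156), and the difference was -2.97 within number 1 and -1.94 within number 2. Its call ended in limma-voom and when Ly6Chi number 1, Ly6Clo number 1 or Ly6Clo number 2 was left out (edgeR adjusted p 0.0649 to 0.0776), while with the block it remained in all 8 fits that left out 1 library. The neighbouring Cxcl2, a chemokine of the same family, was at 250.1 and 87.7 CPM in Ly6Chi and 29.1 and 54.9 CPM in Ly6Clo, also without overlap, and did not pass (log2 fold change -1.90, SE 0.53, edgeR adjusted p 0.929). 4.8% of the 50-base words at the end of Cxcl2 also occur in Cxcl3, and none of those of Cxcl3 in another gene. Nfkbia encodes the inhibitor that holds NF-kappaB in the cytoplasm and is itself induced by it. It was at 1447 and 999 CPM in Ly6Chi and 515 and 737 CPM in Ly6Clo, lower in Ly6Clo with the block (blocked log2 fold change -0.92, SE 0.19, edgeR adjusted p 0.0223).

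Of 22 tested Toll-like receptor and NF-kappaB genes, 17 had a log2 fold change below 0 and 5 above, with a median of -0.25, where the median over all genes tested was 0 and 50% lay above it. None of them was called without the block, and Nfkbia, which is also among the immediate early genes, alone with it. The Toll-like receptor gene Tlr1 was at 94.3 and 53.4 CPM in Ly6Chi and 29.1 and 35.1 CPM in Ly6Clo (log2 fold change -1.15, SE 0.44, edgeR adjusted p 0.995). Myd88, the adaptor of most Toll-like receptors, was at 197 and 191 CPM in Ly6Chi and 87.2 and 140.5 CPM in Ly6Clo (log2 fold change -0.72, SE 0.28, edgeR adjusted p 0.995). Neither pair of groups overlapped and neither gene passed. Bcl2a1b, on the same list and described below, was higher in Ly6Clo without overlap. It did not pass either (log2 fold change 0.92, SE 0.26, edgeR adjusted p 0.929). Among 17 immediate early genes 14 lay below 0, with a median of -0.32. They include Socs3, a feedback inhibitor of cytokine signalling, at 41.00 and 38.1 CPM in Ly6Chi and 8.30 and 15.4 CPM in Ly6Clo, and Ier3 at 168 and 187 CPM in Ly6Chi and 53.98 and 136 CPM in Ly6Clo, and neither passed (edgeR adjusted p 0.995 for each). Inflammatory cytokine and chemokine genes were mixed, 10 below and 6 above 0 with a median of -0.20. Of these Cxcl3 was called without the block, and Ccl5 with it, in the opposite direction. Il1b, a central inflammatory cytokine, was barely measured, with 11 and 4 deposited counts in Ly6Chi and 1.5 and 8.5 in Ly6Clo.

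Of 15 tested Ly6Chi monocyte markers 14 lay below 0, with a median log2 fold change of -0.53, and 4 were called lower with the block: Ly6c2, Plac8, Chil3 and Ms4a4c. Ly6c2 was called without it. Plac8, a gene of myeloid cells with an unsettled function, was at 32.8 and 149 CPM in Ly6Chi and 0 and 17.6 CPM in Ly6Clo, lower in Ly6Clo within each number (blocked log2 fold change -3.17, SE 0.49, edgeR adjusted p 0.000742). Chil3, which encodes the chitinase-like protein Ym1, was at 148 and 72.5 CPM in Ly6Chi and 4.15 and 24.1 CPM in Ly6Clo (blocked log2 fold change -2.54, SE 0.46, edgeR adjusted p 0.00505). 17.1% of the words at its end occur in Chil4 or Gm6522, so its reads may be divided with them. Ms4a4c, a membrane protein gene of the MS4A family, was at 836 and 1407 CPM in Ly6Chi and 245 and 974 CPM in Ly6Clo, where the 2 subsets overlapped and the difference was -1.74 within number 1 and -0.53 within number 2 (blocked log2 fold change -1.01, SE 0.20, edgeR adjusted p 0.0193).

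The remaining members of the monocyte list did not pass. Hp, which encodes the haemoglobin-binding protein haptoglobin, had 58.5 and 8.95 deposited counts in Ly6Chi and 0 and 2.97 in Ly6Clo, so its level rested largely on Ly6Chi number 1. Vcan, a proteoglycan gene of monocytes, was at 86.1 and 61.02 CPM in Ly6Chi and 12.5 and 46.1 CPM in Ly6Clo (log2 fold change -1.14, SE 0.55, edgeR adjusted p 0.995). Ccr2, the receptor by which monocytes leave the marrow and enter tissue, was at 36.9 and 114 CPM in Ly6Chi and 116 and 26.3 CPM in Ly6Clo. The order of the subsets was opposite in the 2 numbers for Ccr2, 1.49 within number 1 and -1.87 within number 2. Cx3cr1, the receptor typical of Ly6Clo monocytes, was too low to be tested, with 0 and 0.5 deposited counts in Ly6Chi and 1 and 5.83 in Ly6Clo. Of 16 Ly6Clo monocyte markers only 5 had enough counts to be tested, 2 above and 3 below 0, with a median of -0.11. The formyl peptide receptor genes Fpr1 and Fpr2, which sense bacterial and mitochondrial peptides, were at 201 and 80.1 CPM in Ly6Chi and 8.30 and 30.7 CPM in Ly6Clo and at 316 and 156 CPM in Ly6Chi and 16.6 and 65.8 CPM in Ly6Clo. Neither passed (edgeR adjusted p 0.995 for each), and in both the lowest library was Ly6Clo number 1.

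Mefv, Gpr141 and Thbs1 were lower in Ly6Clo with the block. Mefv encodes pyrin, which assembles an inflammasome, and was at 65.6 and 76.3 CPM in Ly6Chi and 8.30 and 15.4 CPM in Ly6Clo (blocked log2 fold change -2.47, SE 0.46, edgeR adjusted p 0.00543). Gpr141, an orphan receptor gene, was at 221 and 145 CPM in Ly6Chi and 41.5 and 59.3 CPM in Ly6Clo (blocked log2 fold change -1.76, SE 0.31, edgeR adjusted p 0.00388). In each gene both Ly6Chi libraries stood above both Ly6Clo libraries. Without the block Mefv and Gpr141 were the lower genes with the smallest p-values after Ly6c2 and Cxcl3, ahead of Ly6c1, and their edgeR adjusted p was 0.136 in each. Thbs1, which encodes the matrix protein thrombospondin 1, was at 189 and 461 CPM in Ly6Chi and 62.3 and 171 CPM in Ly6Clo. Number 2 was the higher library of Thbs1 in each subset, and the subset difference was -1.50 within number 1 and -1.40 within number 2 (blocked log2 fold change -1.50, SE 0.22, edgeR adjusted p 0.000697).

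Mmp8, a collagenase stored mainly in neutrophil granules, was at 2029 and 1285 CPM in Ly6Chi and 1196 and 538 CPM in Ly6Clo, with the higher library numbered 1 in each subset (blocked log2 fold change -0.997, SE 0.16, edgeR adjusted p 0.000922). It is also on the list of neutrophil markers, whose summed level was 2169.9 and 1422 CPM in Ly6Chi and 1266 and 652 CPM in Ly6Clo. Mmp8 made up most of that sum. Of the 18 neutrophil markers 10 were at 0 in all 4 libraries, among them Ly6g, Mpo, Elane and Ngp. S100a8 alone of the other neutrophil markers had enough counts to be tested with Mmp8. The part of other cells in Mmp8 was not tested. Of 11 tested metalloproteinase and inhibitor genes 7 lay above and 4 below 0 (median 0.23). Mmp14, a membrane-bound activator of other metalloproteinases, was at 918 and 450.0 CPM in Ly6Chi and 328 and 388 CPM in Ly6Clo and did not pass (log2 fold change -0.92, SE 0.31, edgeR adjusted p 0.995).

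Transcription factor genes were among those lower with the block. Cebpb, a factor of myeloid cells that responds to inflammatory signals, was at 492 and 511 CPM in Ly6Chi and 274 and 252 CPM in Ly6Clo, with little spread within a subset (blocked log2 fold change -0.96, SE 0.20, edgeR adjusted p 0.0174). Cebpb overlaps Tmem189 on the opposite strand, and whether the counting used strand is not given. Maf, which favours a resident macrophage state, was at 898 and 1018 CPM in Ly6Chi and 489.9 and 621 CPM in Ly6Clo (blocked log2 fold change -0.78, SE 0.15, edgeR adjusted p 0.00945). Lmo4, a transcriptional cofactor gene, was at 319.8 and 168 CPM in Ly6Chi and 112 and 96.6 CPM in Ly6Clo (blocked log2 fold change -1.14, SE 0.26, edgeR adjusted p 0.0357). Of 27 tested macrophage transcription factor genes 20 lay below and 7 above 0, with a median of -0.25, and Cebpb and Maf were the members called with the block. Pttg1, which encodes securin of the cell cycle, was at 328 and 286 CPM in Ly6Chi and 125 and 184 CPM in Ly6Clo (blocked log2 fold change -0.98, SE 0.23, edgeR adjusted p 0.0418). Gm6545 and Gm47242, at 139 and 244 CPM in Ly6Chi and 49.8 and 96.6 CPM in Ly6Clo and at 102 and 187 CPM in Ly6Chi and 41.5 and 76.8 CPM in Ly6Clo, were called lower with the block as well (edgeR adjusted p 0.00543 and 0.0357). Both are annotated over A330040F15Rik on the same strand, so these values may describe reads of 1 locus.

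Pan-macrophage markers were present in every library, apart from Itgam. Of 15 tested, 14 lay below 0, with a median of -0.27. Adgre1, which encodes F4/80, was at 1033 and 862 CPM in Ly6Chi and 602 and 590.4 CPM in Ly6Clo, lower in Ly6Clo with the block (blocked log2 fold change -0.65, SE 0.15, edgeR adjusted p 0.0477). Cd68, a lysosomal glycoprotein gene, was at 1701 and 1487 CPM in Ly6Chi and 1624 and 1509.9 CPM in Ly6Clo, with a log2 fold change of -0.03 (SE 0.20). Csf1r, the receptor for the main macrophage growth factor, was at 1144 and 587 CPM in Ly6Chi and 847 and 553 CPM in Ly6Clo (log2 fold change -0.31, SE 0.35). Ptprc, which encodes CD45, was at 566 and 511 CPM in Ly6Chi and 357 and 338 CPM in Ly6Clo and did not pass (log2 fold change -0.63, SE 0.23, edgeR adjusted p 0.995).

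Interferon-stimulated genes form an antiviral programme switched on by type I interferon, and the windows of Isg15 and Rsad2 are shown because both were called with the block and hold a match to the response element typical of such genes. The motif searched was GAAANNGAA on both strands, with overlapping matches merged in capitals, so that the run in Isg15 holds 3 matches. It is found in 7.13% of the 32851 windows and in 8.84% of the genes tested that have one. Of the 20 tested interferon-stimulated genes that have a window 13 hold it (65%). Among the 23 genes called with the block that have a window 4 hold it (17.4%), Chil3, Isg15, Nfkbia and Rsad2. Isg15 and Rsad2 also hold a match to the NF-kappaB-type motif, which is not in capitals here.
Isg15 (chr4:156200819-156201068, - strand): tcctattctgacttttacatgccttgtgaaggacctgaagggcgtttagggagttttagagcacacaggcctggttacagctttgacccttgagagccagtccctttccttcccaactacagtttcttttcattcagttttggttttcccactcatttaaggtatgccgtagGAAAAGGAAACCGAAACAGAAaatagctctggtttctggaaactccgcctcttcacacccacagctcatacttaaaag
Rsad2 (chr12:26456453-26456702, - strand): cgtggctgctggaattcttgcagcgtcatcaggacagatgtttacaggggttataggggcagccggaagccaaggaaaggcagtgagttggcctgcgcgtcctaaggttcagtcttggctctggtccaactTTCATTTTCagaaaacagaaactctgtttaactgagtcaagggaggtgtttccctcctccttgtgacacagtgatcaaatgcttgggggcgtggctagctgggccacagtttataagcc

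Of 31 tested interferon-stimulated genes 29 lay below 0, with a median log2 fold change of -0.33. The median was -0.70 within number 1 and -0.16 within number 2. In both numbers 23 members lay below 0 and 0 above it, where 1401 and 1463 of the 5256 genes tested did so. None was called without the block, and 3 were called lower with it: Isg15, Rsad2 and Zbp1. Isg15, a ubiquitin-like modifier, was at 4555 and 7231 CPM in Ly6Chi and 2437 and 5792 CPM in Ly6Clo. The libraries overlapped, since number 2 exceeded number 1 in each subset (blocked log2 fold change -0.61, SE 0.14, edgeR adjusted p 0.0405). Rsad2, which encodes the antiviral enzyme viperin, was at 3718 and 5362 CPM in Ly6Chi and 1262 and 3757 CPM in Ly6Clo (blocked log2 fold change -1.03, SE 0.18, edgeR adjusted p 0.00543). Zbp1, a sensor of unusual nucleic acids, was at 652 and 828 CPM in Ly6Chi and 319.7 and 571 CPM in Ly6Clo (blocked log2 fold change -0.75, SE 0.17, edgeR adjusted p 0.0313). Cxcl10, a chemokine for activated T cells, was at 197 and 168 CPM in Ly6Chi and 4.15 and 76.8 CPM in Ly6Clo and did not pass (log2 fold change -1.93, SE 0.82, edgeR adjusted p 0.995). Oas3, a sensor of double-stranded RNA, was at 365 and 416 CPM in Ly6Chi and 253 and 246 CPM in Ly6Clo and did not pass (log2 fold change -0.65, SE 0.22, edgeR adjusted p 0.995). The summed level of the list was 26451 and 34671 CPM in Ly6Chi and 15673 and 29304 CPM in Ly6Clo. Ly6Clo number 1 was lowest, and Ly6Clo number 2 lay between the Ly6Chi libraries. Slfn4, a schlafen gene that responds to interferon, was at 619 and 911 CPM in Ly6Chi and 154 and 619 CPM in Ly6Clo (blocked log2 fold change -1.12, SE 0.23, edgeR adjusted p 0.0303).

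Genes of MHC class I presentation had the same tilt, 14 of 15 below 0 with a median of -0.28, and none was called with or without the block. Tap1, the transporter that loads peptides, was at 353 and 366 CPM in Ly6Chi and 154 and 266 CPM in Ly6Clo (log2 fold change -0.74, SE 0.34, edgeR adjusted p 0.995). The 6 tested genes of MHC class II and costimulation all lay above 0, with a median of 0.35, and none was called. H2-Eb1, a class II beta chain, was at 152 and 149 CPM in Ly6Chi and 266 and 173 CPM in Ly6Clo (log2 fold change 0.52, SE 0.28, edgeR adjusted p 0.995). In H2-Eb1 the Ly6Chi libraries lay below both Ly6Clo libraries.

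The 9 genes higher in Ly6Clo with the block were Igf1, Hpgds, Fabp7, Atp6v0d2, Mmp12, Ctsl, Timp2, Hilpda and Ccl5. None of them passed without it. The blocked calls of Atp6v0d2, Mmp12, Ctsl, Timp2, Hilpda and Ccl5 were kept in no fit that left out a compared library. Igf1, insulin-like growth factor 1, which supports tissue repair, was at 521 and 549 CPM in Ly6Chi and 1001 and 1091 CPM in Ly6Clo (chr10:87858265-87937042, + strand). Its libraries were close within a subset, and the Ly6Clo mean was 1.96 times the Ly6Chi mean by the fit (blocked log2 fold change 0.97, SE 0.15, edgeR adjusted p 0.000912). It was the higher gene with the smallest p-value without the block, where the edgeR adjusted p was 0.224. An antisense transcript, Igf1os, overlaps Igf1. Fabp7, a fatty acid carrier gene, was at 94.3 and 118 CPM in Ly6Chi and 382 and 202 CPM in Ly6Clo (blocked log2 fold change 1.37, SE 0.27, edgeR adjusted p 0.0108). Hpgds, which makes prostaglandin D2, was at 61.5 and 45.8 CPM in Ly6Chi and 195 and 143 CPM in Ly6Clo (blocked log2 fold change 1.69, SE 0.32, edgeR adjusted p 0.00543). In Fabp7 and Hpgds Ly6Clo number 1 was the highest library. Of 12 tested wound healing and growth factor genes 8 lay above and 4 below 0 (median 0.12). Of these Igf1 was called higher and Chil3 and Thbs1 lower with the block.

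Ctsl, the lysosomal protease cathepsin L, was at 5801 and 5038 CPM in Ly6Chi and 9620.5 and 7095 CPM in Ly6Clo (blocked log2 fold change 0.62, SE 0.14, edgeR adjusted p 0.0313). Atp6v0d2, a subunit of the proton pump that acidifies lysosomes, was at 115 and 38.1 CPM in Ly6Chi and 245 and 119 CPM in Ly6Clo (blocked log2 fold change 1.26, SE 0.29, edgeR adjusted p 0.0337). Mmp12, the macrophage elastase, was at 336 and 91.5 CPM in Ly6Chi and 722 and 226 CPM in Ly6Clo. Its number 1 libraries were higher than its number 2 libraries in each subset, so the groups overlapped while the difference was 1.09 within number 1 and 1.24 within number 2 (blocked log2 fold change 1.13, SE 0.23, edgeR adjusted p 0.0193). Timp2, an inhibitor of metalloproteinases, was at 266 and 160.2 CPM in Ly6Chi and 419 and 325 CPM in Ly6Clo (blocked log2 fold change 0.84, SE 0.20, edgeR adjusted p 0.0418). Hilpda, which restrains lipid breakdown in lipid droplets, was at 271 and 252 CPM in Ly6Chi and 390.3 and 531 CPM in Ly6Clo (blocked log2 fold change 0.82, SE 0.19, edgeR adjusted p 0.0357). Ccl5, a chemokine for T cells and monocytes, differed far more by number than by subset, at 148 and 1289 CPM in Ly6Chi and 299 and 2032 CPM in Ly6Clo. The subset difference of Ccl5 was 0.99 within number 1 and 0.65 within number 2 (blocked log2 fold change 0.76, SE 0.16, edgeR adjusted p 0.0224), and without the block its SE was 1.81.

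The 29 tested cathepsin and lysosome genes as a whole were evenly divided, 15 above and 14 below 0 with a median of 0.01, and Ctsl and Atp6v0d2 were the members called with the block. Ctsc, which encodes cathepsin C, was at 996 and 915 CPM in Ly6Chi and 639 and 707 CPM in Ly6Clo and did not pass (edgeR adjusted p 0.995).

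Of 25 markers of resident cardiac macrophages 16 were tested, and 11 lay above 0 (median 0.38). Igf1 was called higher and Maf lower with the block, and none without it. Lyve1 and Cd163, which mark long-lived resident macrophages, were at 0 in all 4 libraries, and Timd4 had at most 3.81 CPM. C1qa, a chain of the complement starter C1q, was at 496 and 477 CPM in Ly6Chi and 681 and 669 CPM in Ly6Clo and did not pass (log2 fold change 0.47, SE 0.21, edgeR adjusted p 0.995). Gas6, a bridge between dying cells and the receptors that engulf them, was at 57.4 and 129.7 CPM in Ly6Chi and 249 and 154 CPM in Ly6Clo (log2 fold change 1.06, SE 0.37, edgeR adjusted p 0.995), and Folr2, a folate receptor gene, at 12.3 and 22.9 CPM in Ly6Chi and 53.98 and 39.5 CPM in Ly6Clo (log2 fold change 1.33, SE 0.58, edgeR adjusted p 0.995). Mrc1, which encodes the mannose receptor CD206, was at 189 and 114 CPM in Ly6Chi and 257 and 87.8 CPM in Ly6Clo, with the subset order opposite in the 2 numbers.

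Lipid handling genes lay above 0 in 16 of 22 tested members (median 0.27) and efferocytosis genes in 11 of 13 (median 0.22), with no call with or without the block. Fabp4, a fatty acid carrier gene, was at 250.1 and 217 CPM in Ly6Chi and 365 and 406 CPM in Ly6Clo (log2 fold change 0.73, SE 0.23, edgeR adjusted p 0.958). Cd36, a scavenger receptor for lipids and dying cells, was at 947 and 1358 CPM in Ly6Chi and 1868 and 1466 CPM in Ly6Clo (log2 fold change 0.53, SE 0.25, edgeR adjusted p 0.995). Apoe, a carrier of cholesterol, was at 1246 and 1053 CPM in Ly6Chi and 2009.6 and 1339 CPM in Ly6Clo (log2 fold change 0.54, SE 0.25, edgeR adjusted p 0.995). The Ly6Clo libraries of Fabp4, Cd36 and Apoe lay above both Ly6Chi libraries, and none of the 3 passed. Spp1, which encodes osteopontin, was at 2427 and 2235 CPM in Ly6Chi and 6689 and 2928 CPM in Ly6Clo, where Ly6Clo number 1 stood far above the others (log2 fold change 1.04, SE 0.44, edgeR adjusted p 0.995). Tgfbi, a matrix gene induced by TGF-beta, was at 832 and 835 CPM in Ly6Chi and 465 and 601 CPM in Ly6Clo (log2 fold change -0.64, SE 0.22, edgeR adjusted p 0.995). Arg1, which encodes the enzyme arginase 1 of repair macrophages, was at 410.0 and 595 CPM in Ly6Chi and 598 and 617 CPM in Ly6Clo (log2 fold change 0.27, SE 0.23, edgeR adjusted p 0.995).

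Cytosolic ribosomal protein genes lay above 0 in 70 of 75 tested members, with a median of 0.22, 0.13 within number 1 and 0.30 within number 2. In 26 members the Ly6Clo libraries lay above both Ly6Chi libraries, in 0 below, where over all genes tested the shares were 16.9 and 17%, and none was called with or without the block. Rpl11 was at 32.8 and 53.4 CPM in Ly6Chi and 104 and 98.8 CPM in Ly6Clo (log2 fold change 1.21, SE 0.35, edgeR adjusted p 0.929) and Rpl10 at 201 and 179 CPM in Ly6Chi and 316 and 347 CPM in Ly6Clo (log2 fold change 0.81, SE 0.24, edgeR adjusted p 0.929). Of the words at their ends 27.6% and 54.9% occur in other loci of the annotation, so their counts are uncertain. The share of counts in ribosomal protein genes was 1.97 and 1.58% in Ly6Chi and 2.21 and 2% in Ly6Clo. The 81 tested respiratory chain genes were evenly divided (43 above, 38 below, median 0.01), as were actin and motility genes (17 and 13 of 30) and NRF2-linked antioxidant genes (9 and 9 of 18).

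**Figure D3:**
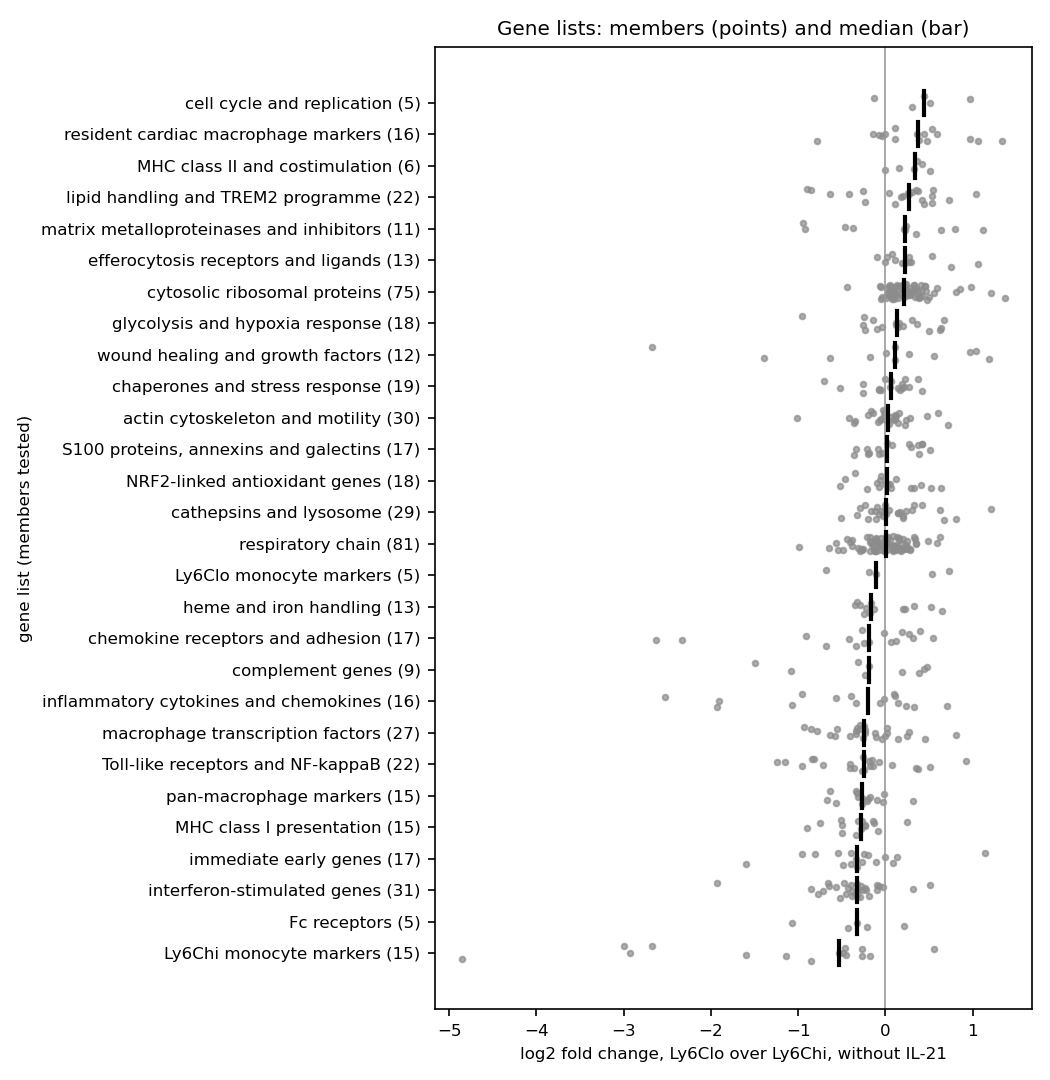
Log2 fold change, Ly6Clo over Ly6Chi without IL-21, of the tested members (grey points) and the median (black bar) of each gene list with at least 5 tested members, ordered by median with the number tested in parentheses. The Ly6Chi monocyte markers had the lowest median (-0.53), and the ribosomal genes form a narrow band above 0 (median 0.22).

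Genes that met the rule by small p-values in the higher direction without passing were, beside Igf1 and Fabp7, Bcl2a1a, Bcl2a1b and Serpinb6a. Bcl2a1a and Bcl2a1b, which encode inhibitors of apoptosis, were at 41.00 and 34.3 CPM in Ly6Chi and 108 and 87.8 CPM in Ly6Clo and at 119 and 149 CPM in Ly6Chi and 299 and 217 CPM in Ly6Clo (edgeR adjusted p 0.893 and 0.929). Bcl2a1a and Bcl2a1b are near-identical copies, and 64.5% and 76.5% of the words at their ends are shared, so the division of reads between them is uncertain. Serpinb6a, a protease inhibitor gene that overlaps other transcripts, was at 107 and 107 CPM in Ly6Chi and 237 and 211 CPM in Ly6Clo (log2 fold change 1.06, SE 0.28, edgeR adjusted p 0.893), and with the block its edgeR adjusted p was 0.0513. Il21r, the receptor for the cytokine left out here, was at 98.4 and 137 CPM in Ly6Chi and 99.7 and 87.8 CPM in Ly6Clo (log2 fold change -0.35, SE 0.32, edgeR adjusted p 0.995).

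Markers of other cell types were at 0 or low for most genes and high for a few. List sums were taken before counts were rounded, and since the macrophage gene Itgam was also at 0, a 0 in these libraries says little about whether a gene is expressed. The summed level of 15 fibroblast markers was 106 and 217 CPM in Ly6Chi and 29.1 and 50.5 CPM in Ly6Clo, and only Col1a2 and Col3a1 had enough counts to be tested. Col1a2, a collagen I chain, was at 24.6 and 53.4 CPM in Ly6Chi and 4.15 and 13.2 CPM in Ly6Clo (log2 fold change -1.95, SE 0.82, edgeR adjusted p 0.995), and Col3a1 at 20.5 and 41.95 CPM in Ly6Chi and 12.5 and 6.58 CPM in Ly6Clo (log2 fold change -1.80, SE 0.84, edgeR adjusted p 0.995). Lum, Tcf21 and Thy1 were at 0 in all 4 libraries. The 10 B cell markers summed to at most 1.91 CPM. The 14 endothelial markers summed to 519 and 579.9 CPM in Ly6Chi and 453 and 668 CPM in Ly6Clo, most of it Fabp4 and Kdr. Kdr, a receptor for vascular endothelial growth factor, was at 139 and 259 CPM in Ly6Chi and 58.1 and 199.7 CPM in Ly6Clo, lowest in Ly6Clo number 1 (log2 fold change -0.54, SE 0.78, edgeR adjusted p 0.995). Pecam1, Cldn5, Emcn, Tek and Tie1 were at 0 in all 4 libraries. The 17 dendritic cell markers summed to 4250.0 and 5229 CPM in Ly6Chi and 3343 and 4895 CPM in Ly6Clo, nearly all of it Bst2, a surface protein that interferon also induces, at 4182 and 5129 CPM in Ly6Chi and 3259 and 4692 CPM in Ly6Clo. The other 16 included 7 at 0 in all 4 libraries, among them Clec9a, Siglech and Cd209a. Platelet and erythroid markers summed to 1846 and 2026 CPM in Ly6Chi and 1883 and 1717 CPM in Ly6Clo, nearly all of it Pf4, a chemokine gene that is also on the list of resident macrophage markers, at 1788 and 1934 CPM in Ly6Chi and 1856 and 1674 CPM in Ly6Clo. Neither Bst2 nor Pf4 passed (edgeR adjusted p 0.995 for each). Cardiomyocyte markers summed to 58.4 and 103 CPM in Ly6Chi and 31.99 and 60.3 CPM in Ly6Clo, and 12 smooth muscle, pericyte and epicardial markers to at most 11.9 CPM and 11 mast cell and eosinophil markers to at most 37.3 CPM. T cell and NK cell markers summed to 587 and 926 CPM in Ly6Chi and 679 and 879 CPM in Ly6Clo, nearly all of it Il7r. The part of such cells in the differences was not tested.

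The same subsets cultured with IL-21 gave the difference in other libraries, although these entered the same fit and share its numbers. The labels do not say whether cells with and without IL-21 came from the same mice. The 2 comparisons may therefore not be independent. Without the block Ly6c2 alone was called there (0.019% of the genes tested), and 277 genes had an unadjusted p under 0.05 (5.27%). DESeq2 called 1 gene and limma-voom 0. With the block 41 genes were called (0.78%), 23 higher (0.438%) and 18 lower (0.342%) in Ly6Clo. All 31 genes called with the block without IL-21 had the same sign with IL-21, against 59.6% of all genes tested, and 16 of the 31 were called there too. In 19 of the 31, 6 higher and 13 lower, the groups did not overlap in the same direction with IL-21, where over all genes tested 16.2% were higher and 16.7% lower without overlap. Log2 fold changes and SEs in this paragraph are from the fit without the block. Cxcl3 was at 335 and 283 CPM in Ly6Chi and 91.9 and 153 CPM in Ly6Clo with IL-21, a log2 fold change of -1.30 (SE 0.30), and was called with the block (edgeR adjusted p 0.00942). Igf1 was at 425 and 427 CPM in Ly6Chi and 735 and 779 CPM in Ly6Clo, a log2 fold change of 0.83 (SE 0.21), and was called with the block as well (edgeR adjusted p 0.00942). Atp6v0d2 was at 37.7 and 19.9 CPM in Ly6Chi and 164 and 98.6 CPM in Ly6Clo, a log2 fold change of 2.09 (SE 0.62) (edgeR adjusted p with the block 0.00301). Mefv was at 60.2 and 69.5 CPM in Ly6Chi and 39.97 and 51.8 CPM in Ly6Clo, a log2 fold change of -0.46 (SE 0.39), which did not pass with or without the block.

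The difference between the 2 subset differences was tested in the same model. It called 0 genes without the block, with 92 at an unadjusted p under 0.05 (1.75%), DESeq2 called 0 (13) and limma-voom 0 (88), and the block called 1 (0.019%), Rpl10. For Mefv the difference of differences was 1.98 on the log2 scale (SE 0.61, edgeR adjusted p 1) and for Cxcl3 1.22 (SE 0.46, edgeR adjusted p 1). No such difference was detectable for these genes at this depth and number of libraries. Across the 5256 genes the log2 fold changes with and without IL-21 correlated over genes (Pearson r 0.351, Spearman rho 0.284), which are not independent replicates.

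**Figure D4:**
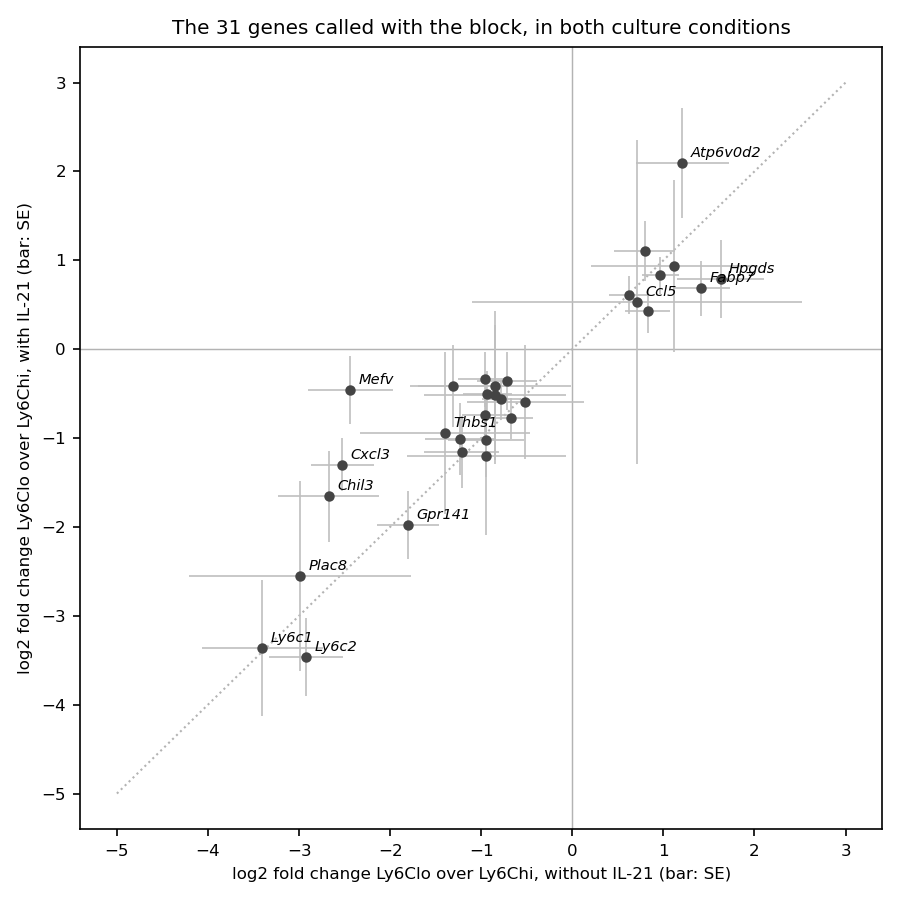
Log2 fold change, Ly6Clo over Ly6Chi, without IL-21 (x axis) and with IL-21 (y axis) for the 31 genes called with the block without IL-21, from the fit without the block, with bars of 1 SE and a dotted line of equality. All 31 lie in the lower left or the upper right, and the bars of Ccl5 and Plac8 are among the longest.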

How the data were processed

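RNA was measured in 8 libraries of 4 groups of 2. The deposited values are expected counts per Ensembl gene, called raw per the file headers. Per the labels' protocols, libraries were made with a QuantSeq 3′ FWD kit and its module for unique molecular identifiers and read as 75-base single ends. Per the submitters' processing notes the build was mm10, and DESeq2 was used in a version they omit. The sources used here do not give the aligner, counter, annotation release or use of identifiers and strand. Without use of the identifiers, counts include amplified copies. Of genes above 0, 53.3 to 59.7% in the 4 libraries had a value that was not whole (tolerance 0.001), where reads of similar genes may have been divided, and values were rounded first. The design had assumed whole counts.

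Of 53342 identifiers 53237 matched GENCODE M21 (GRCm38), the source of gene positions. filterByExpr (minimum count 10, total 15) kept 5256 genes. TMM-scaled counts were fitted with edgeR 4.0.16 (limma 3.58.1, DESeq2 1.42.0, R 4.3.3) over all 8 libraries with 4 group means, which left 4 residual degrees of freedom, and tested by robust quasi-likelihood with Benjamini-Hochberg adjustment at 0.05. The scripts were tested on simulated data. SE is the standard error of a log2 fold change, Ly6Clo over Ly6Chi. The replicate number as a block was an alternative. Of the 6 pairs of groups, deviations of same-numbered libraries correlated by 0.234 to 0.412, and 431 genes differed by number. The lowest value, 0.234, was that of the groups compared here, Ly6Chi and Ly6Clo without IL-21. The fit with the block treats same-numbered libraries as pairs, and the main fit does not. The pairing rests on this check alone, made on the same counts that were then tested, since the labels give numbers only. The check cannot show whether a number marks a shared mouse or day.

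Named genes were, per direction, up to 15 called genes, or else the 5 with the smallest p, up to 4 tested members of each of 40 gene lists, and 15 genes of macrophage biology. The subset difference with IL-21 and the difference of differences each supplied up to 5 named genes per direction as well. Members and lists were chosen with earlier results of these data known. Some genes that the rule names are not reported here. Alternatives were other tests, normalizations, filters, unrounded counts and leaving out each library.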

Additional observations from a re-analysis of the deposited data

Results flagged for a closer look

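The following named genes were flagged because their subset difference was of opposite sign with and without IL-21. Rpl10, Col1a2, Col3a1, Gpatch4 and Rab29 had been named for small p-values of the difference of differences in these same libraries. That choice favours large values and opposite signs. Over all genes tested 59.6% had the same sign in both, so opposite signs were common. The share of all genes that would be flagged was not counted. The values are the difference between the 2 log2 fold changes, with IL-21 minus without. For Rpl10 it was -1.87 (SE 0.34) in the fit without the block. The difference for Rpl10 passed in the blocked fit (edgeR adjusted p 0.00429) and not without the block (0.394). Rpl10 was at 201 and 179 CPM in Ly6Chi and 316 and 347 CPM in Ly6Clo without IL-21 and at 354 and 343 CPM in Ly6Chi and 196 and 140.5 CPM in Ly6Clo with IL-21. Every library of the other 5 genes moved one way without IL-21 and the other way with it within its number, and none of the 5 passed the test of the difference with or without the block (edgeR adjusted p 1 for each without it). The value was 3.59 for the collagen gene Col1a2 and 3.84 for Col3a1. Col1a2 was at 3.77 and 24.8 CPM in Ly6Chi and 27.98 and 51.8 CPM in Ly6Clo with IL-21, the opposite order of that without it. For Fcgr2b, the inhibitory Fc receptor, which was at 135 and 111 CPM in Ly6Chi and 66.4 and 52.7 CPM in Ly6Clo without IL-21, the value was 1.16. It was -2.31 for Gpatch4 and 1.62 for Rab29, a small GTPase gene.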

How the results depend on the processing

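Without a block, the 2 calls (0 higher, 2 lower) became 1 with limma-voom, 1 when genes needed a mean count of 20, and 16 with no filter on low counts (3 higher, 13 lower). Leaving out each library gave 0 to 3. Ly6c2 and Cxcl3 kept their direction in every alternative. With the replicate block, which pairs libraries by a number only, the count was 31 (9 higher, 22 lower). Chosen after seeing the data, blocked alternatives gave 17 with only the 4 libraries without IL-21 (4 higher, 13 lower) and 10 with DESeq2 (2 higher, 8 lower). In blocked DESeq2 13 of the 31 had no adjusted p, among them Cxcl3, Ly6c1, Chil3, Plac8, Gpr141, Mefv, Fabp7 and Hpgds. Cebpb, Zbp1, Mmp12, Ccl5, Hilpda, Isg15, Timp2 and Adgre1 did not pass there. Blocked limma-voom called 29 genes and kept 27 of the 31. Chil3, Mefv, Pttg1 and Timp2 did not pass in it (limma-voom adjusted p 0.112, 0.0643, 0.0643 and 0.0578). Of these, Chil3, Mefv and Pttg1 had no adjusted p in blocked DESeq2, so neither other test called them. The blocked count was 62 with no filter (17 higher, 45 lower), and a mean count of 20 left 14 lower calls. Leaving out 1 library gave 7 to 78 calls (1 to 27 higher, 6 to 52 lower). The count was 9 without Ly6Chi number 1 (2 higher, 7 lower), 46 without Ly6Chi number 2 (39 lower), 7 without Ly6Clo number 1 (1 higher, 6 lower) and 13 without Ly6Clo number 2 (1 higher, 12 lower). It was 78 without the IL-21 library Ly6Chi number 1 (27 higher, 51 lower) and 72 without Ly6Chi number 2 (20 higher, 52 lower). Where a leave-out left 1 library in a group, that library was assumed to vary like the others. The filter on low counts was rerun in each leave-out and kept 5815 to 5971 genes. The counts of calls therefore do not rest on the same genes. Cxcl3 and Ly6c2 were kept in all 8 such fits, Thbs1, Igf1 and Mmp8 in 7, and 10 of the 31 in none of the 4 that left out a compared library, so those 10 calls need all 4 libraries.

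With IL-21, the 1 call became 41 with the replicate block, 0 with limma-voom, 0 for a mean count of 20, 22 with no filter, and 0 to 2 with a library left out. The difference between the subset differences had 0 calls, 1 with the replicate block and 1 with no filter. Among named genes without IL-21, leaving out 1 library turned the sign of Bst2 (log2 fold changes -0.52 to 0.013), Ccl5 (-1.28 to 2.99), Ccr2 (-1.52 to 0.77), Cd68 (-0.13 to 0.094), Csf1r (-0.73 to 0.27) and Mrc1 (-0.78 to 0.76), and limma-voom that of Mrc1 (-0.088). The cause was not tested. At these depths a gene near 10 CPM rests on a few counts.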
